A study of Rattus norvegicus with 18 samples.

Results

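Doxycycline-treated and untreated cells of the rat β-cell line INS-1, clone #4S2, were compared after 5 days of culture. The comparison rests on 6 of the 18 arrays of the series, 3 labelled control and 3 labelled doxycycline (2 µg/ml), and the members were chosen by title alone. INS-1 is a rat insulinoma line. Clone #4S2 carries the Tet-On activator and a doxycycline-responsive gene for a folding-deficient mouse insulin 2 fused to EGFP, a fluorescent protein, and it is a single clone from which the cells with the brightest EGFP had been sorted. Untreated and treated cells carry both constructs and all arrays stem from that clone. From these arrays alone, effects of the drug itself and of the mutant insulin cannot be told apart. The paper states, without showing the data, that this drug concentration left Grp78 and Chop mRNA and protein unchanged in a parental INS-1 line. It attributes the changes to the mutant insulin. Each replicate number stands for a control and a doxycycline array of the same independent experiment, called a pair here. The other 12 arrays are 6 controls and 6 doxycycline arrays of 24 h and 48 h, and they serve below as the reference for what a control and a treated array looked like at earlier times.

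Proinsulin folds and forms its disulfide bonds in the endoplasmic reticulum (ER), and β-cells make it in very large amounts. When unfolded protein accumulates there, the sensors ATF6, IRE1 and PERK start the unfolded protein response. ATF6 and the IRE1 product XBP1 raise chaperones, degradation factors and the secretory machinery, whereas PERK phosphorylates eIF2α and thereby favours translation of ATF4, which drives amino acid supply, tRNA charging and the factor CHOP. The ATF4 branch is also reached from other eIF2α kinases, for example on amino acid shortage.

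All values are array signals scaled by the authors, quantile normalised here across the 18 arrays, or log2 ratios of doxycycline over control within a pair, so that a log2 ratio of 1 is a 2-fold higher signal with doxycycline. The 15521 probe sets in the upper 50% by mean signal were tested. The 3 pairs did not resemble each other. Across these probe sets the log2 ratios of pairs 1 and 2 correlated at r = -0.04, those of pairs 1 and 3 at -0.29 and those of pairs 2 and 3 at 0.19, and probe sets are not independent replicates. The ratios of pair 1 run opposite to those that the study lists for that experiment, so the arrays are called the libraries labelled control and doxycycline, replicate 1, and values are given as labelled and also with these labels exchanged. The library labelled doxycycline, replicate 2, had a GAPDH 3'/5' signal ratio of 2.91, where the other 17 arrays had 1.05 to 1.19, and a median correlation of 0.870 with the other arrays, where those had 0.956 to 0.977. A high ratio means that the 5' part of a transcript gives little signal relative to the 3' part. Pair 2 had log2 ratios with a standard deviation of 0.88, against 0.33 in pair 1 and 0.35 in pair 3, and 677 probe sets at least 2-fold higher and 1711 at least 2-fold lower, against 53 and 119 in pair 1 and 130 and 130 in pair 3. Only pair 3 carries neither doubt.

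The nearest neighbours of the 6 arrays among all 18 were not always of their own treatment. The library labelled control, replicate 1, was closest to doxycycline, 24 h, replicate 1 (r = 0.985), and the library labelled doxycycline, replicate 1, to control, 24 h, replicate 1 (r = 0.979). Control replicate 3 was closest to a 48 h control (r = 0.985) and doxycycline replicate 3 to a 48 h doxycycline array (r = 0.982). Control replicate 2 was closest to a 48 h doxycycline array (r = 0.966). Doxycycline replicate 2 was closest to doxycycline replicate 3 of 5 days, at a lower r of 0.892. The cells kept β-cell markers at high signal. The 10 markers with a probe set summed to 91056 to 124046 in the controls and 92394 to 97966 with doxycycline. The 5 fibroblast markers Col1a1, Col1a2, Col3a1, Dcn and Lum, and the 5 acinar, 4 macrophage and 3 endothelial markers with a probe set, stayed under a signal of 122, the limit for testing, in all 6 arrays. Of the wider fibroblast list Pdgfra (141 to 280.3) and Thy1 (1082 to 2027) passed that limit, with log2 ratios of -0.26, 0.59 and -0.17, and of 0.61, -0.16 and -0.28.

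Limma, fitted to the 6 arrays as labelled with the 3 pairs as a block, called no probe set after Benjamini-Hochberg adjustment, with a smallest adjusted p of 0.935. The share called was 0.0% in either direction. At an unadjusted p under 0.05 the fit had 172 probe sets higher and 213 lower, and the methods' t-test on the same values 179 and 106, none of them after adjustment. With the labels of replicate 1 exchanged, the same 6 arrays again gave no call (591 higher and 352 lower unadjusted, smallest adjusted p = 0.715). A limma fit of all 18 arrays, whose spread is shared with the earlier times, called none as labelled and 284 higher and 141 lower with the labels exchanged. The residual standard deviation of a probe set, at the median, was 0.24 log2 units as labelled and 0.21 exchanged, while it was 0.099 in the 24 h arrays and 0.11 in the 48 h arrays. By the rule of at least 2-fold in 2 or more pairs, 46 probe sets were higher (0.296% of those tested) and 68 lower (0.438%). Without quantile normalisation the same rule gave 26 and 100, so its split between higher and lower depends on the scaling. With the labels of replicate 1 exchanged it gave 84 higher (0.541%) and 68 lower (0.438%). Without pair 2 only 1 was left in each direction, and without pair 3 there were 7 and 13. What follows therefore describes each pair on its own.

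Promoter sequences are given first, because list genes that hold different response elements differed in pair 2. Only some promoters of each list hold such an element, and its part in the ratios was not tested. In RefSeq promoter windows of 300 bases around annotated start sites (build GRCr8), the ER stress response element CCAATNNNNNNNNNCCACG was searched on both strands. It occurs in 7 of the 25 chaperone promoters that could be matched by symbol and in 21 of all 27457 promoters (0.0765%). The windows below carry 10 bases on either side, with the fixed letters of the element in capitals, and stand for the chaperone group. They lie at chr3:38452963-38453001 (plus strand) for Hspa5, chr7:121789229-121789267 (minus) for Creld2, chr15:102432524-102432562 (plus) for Dnajc3 and chr7:23012337-23012375 (plus) for the nearer of both Hsp90b1 matches. All lie upstream of the start site.
Hspa5: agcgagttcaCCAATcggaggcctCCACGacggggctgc
Creld2: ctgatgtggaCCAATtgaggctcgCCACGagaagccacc
Dnajc3: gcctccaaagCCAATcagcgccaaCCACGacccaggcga
Hsp90b1: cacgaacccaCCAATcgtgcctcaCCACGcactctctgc

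The C/EBP-ATF response element TGATGNAA, through which ATF4 acts, occurs in 3.82% of all promoters. It was present in 7 of 17 promoters of cytosolic tRNA synthetases, 4 of 16 of amino acid synthesis and transport and 3 of 13 of the PERK, ATF4 and CHOP targets, and in none of the 25 chaperone promoters. A further element, TGACGTGG, was present in 3 of 25 chaperone promoters and in 0.637% of all. Its reverse complement begins with the last letters of the first element, but no chaperone promoter held both. The following windows, again with 10 bases on either side, stand for the ATF4 group and lie at chr3:161275537-161275564 (plus) for Trib3, chr3:126795954-126795981 (minus) for Chac1, chr10:106420926-106420953 (minus) for Pycr1 and chr17:15193659-15193686 (plus) for Iars1.
Trib3: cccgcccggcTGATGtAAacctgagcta
Chac1: ctagcaggagTGATGcAAcggcggagaa
Pycr1: gtcctgtgtaTGATGcAAtgtacaaggc
Iars1: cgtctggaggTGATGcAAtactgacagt
A match describes letters and is not evidence of binding. The tested genes of the lists that hold the first element (8 genes) had median log2 ratios of -1.13, 0.98 and 0.49 in pairs 1, 2 and 3, with 1, 6 and 8 above 0. All 14 tested genes with this element had -0.54, 0.31 and 0.32. Those of the lists that hold the second (19 genes) had -0.50, -0.46 and 0.83, with 1, 2 and 17 above 0. By these medians the list genes of the first group were higher with doxycycline in pairs 2 and 3, and the second in pair 3 only. All 138 tested genes with the second element had medians of -0.09, 0.01 and 0.11.

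Probe sets that had changed at 48 h gave the sign of each pair, and they were chosen on arrays other than the 6 described. Limma on the 48 h arrays called 361 probe sets higher and 185 lower. It called none at 48 h without the filter on dim probe sets. Of the 361, 24 (6.65%) had a positive log2 ratio in pair 1, 216 (59.8%) in pair 2 and 347 (96.1%) in pair 3, where 51.7%, 56.6% and 50.8% of all tested probe sets did. Of the 185, 159 (85.9%), 44 (23.8%) and 12 (6.49%) were positive. The medians of the 361 were -0.60, 0.22 and 0.57. Pair 3 thus went with 48 h and pair 1 went against it. In pair 2 the 361 were split, while most of the 185 went with 48 h. The medians of the 185 were 0.40, -0.71 and -0.58 in pairs 1, 2 and 3. The 30 probe sets called higher at 24 h were less divided, with 0, 25 and 30 positive and medians of -1.51, 1.58 and 1.11. Over all 15521 probe sets the log2 ratios of pairs 1, 2 and 3 correlated with the 48 h mean at -0.46, 0.21 and 0.55.

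**Figure D1:**
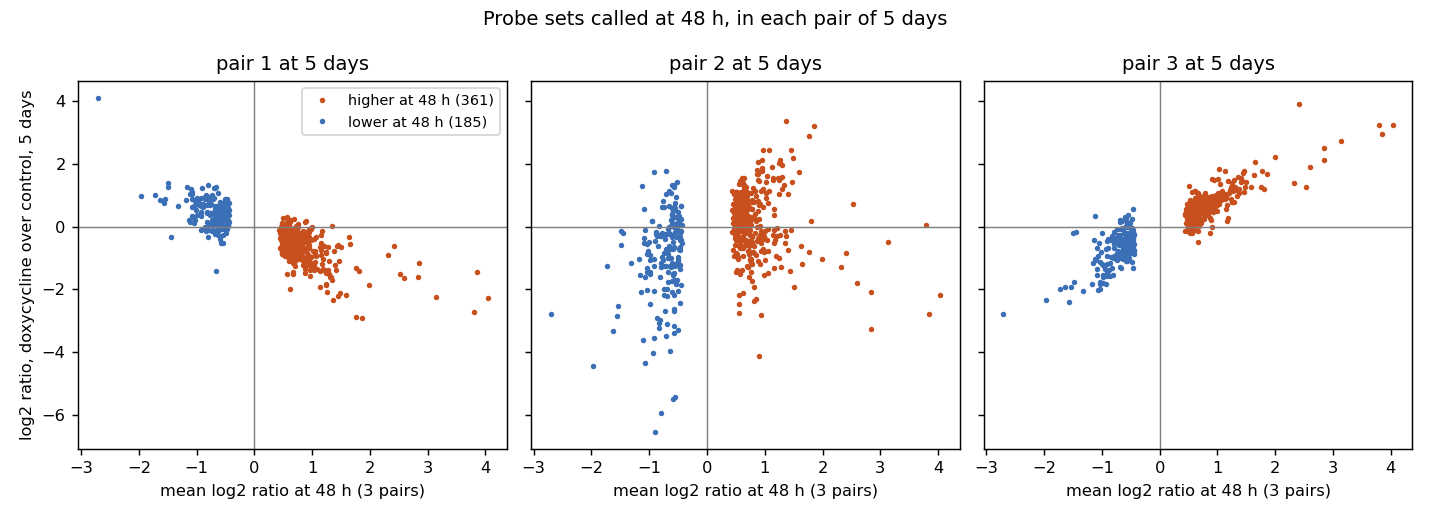
Each point is a probe set that limma called at 48 h, with its mean log2 ratio of doxycycline over control in the 3 pairs of 48 h on the x axis and its log2 ratio in 1 pair of 5 days on the y axis; orange marks the 361 higher and blue the 185 lower at 48 h. The points fall along a falling line in pair 1 and a rising line in pair 3, and in pair 2 the 361 lie on both sides of 0.

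The ER chaperones and folding enzymes were higher with doxycycline in pairs 2 and 3 and lower in pair 1. Of 29 tested genes, 27 were higher in pair 2, 26 in pair 3 and 1 in pair 1, and the median log2 ratios were -1.10, 0.86 and 0.49, while those of all probe sets were 0.01, 0.10 and 0.00. In both pairs 2 and 3, 24 of the 29 were higher, where 31.8% of all probe sets were. The median over genes of the mean ratio was 0.12 as labelled and 0.71 with replicate 1 exchanged. At 48 h it was 0.65. No member passed limma in the 6 arrays with either labelling.

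BiP (Hspa5), the main Hsp70 chaperone of the ER, had signals of 21559, 10658 and 11784 in the libraries labelled control, replicates 1 to 3, and of 7942, 22875 and 19095 in those labelled doxycycline. Control replicate 1 and doxycycline replicates 2 and 3 are the high arrays, and the groups overlap. The 6 earlier controls lay between 11058 and 15348 and the 6 earlier doxycycline arrays between 21345 and 23709.9, so the library labelled doxycycline, replicate 1, and control replicate 2 were below every earlier control. The log2 ratios were -1.44, 1.10 and 0.70. Their mean was 0.12 (standard error 0.52, limma adjusted p = 0.979, n = 3 pairs, higher in 2 of 3) as labelled and 1.08 with replicate 1 exchanged. Standard errors here and below are limma's moderated values, which draw on the spread of all tested probe sets. They can be smaller than the standard error of the 3 ratios alone.

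Sdf2l1, a partner of the ER DnaJ proteins, had the widest range among the chaperones named here. Its signals in control libraries 1 to 3 were 6825, 595 and 1589, those in the doxycycline libraries 907, 5408 and 5014, and its log2 ratios were -2.91, 3.18 and 1.66. The mean was 0.64 (standard error 1.17, limma adjusted p = 0.951, n = 3, higher in 2 of 3) as labelled and 2.58 exchanged. Earlier controls had 1103 to 2229 and earlier doxycycline arrays 5369 to 7621. Control replicate 2 and the library labelled doxycycline, replicate 1, were below all of them.

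The other leading chaperones also had a negative ratio in pair 1 and positive ratios in pairs 2 and 3. Creld2, an ER protein with isomerase activity, had log2 ratios of -2.33, 3.36 and 1.19. Dnajc3 (p58IPK), a BiP co-chaperone that also restrains PERK, had -2.07, 2.12 and 1.15. Fkbp11, a peptidyl-prolyl isomerase, had -2.19, 1.73 and 1.27, and Manf, a secreted protein retained in the ER, -1.91, 1.88 and 0.89. The BiP co-chaperones Dnajb9 and Dnajb11 had -1.52, 1.18 and 1.27, and -1.39, 1.62 and 0.95. The pancreatic disulfide isomerase Pdia2 had -1.22, 1.04 and 1.55, and Pdia4 -1.46, 1.54 and 0.88. The abundant Hsp90b1 (GRP94) had smaller ratios of -0.81, 0.86 and 0.37. By the 2-fold rule 6 of the 29 were higher as labelled, where 0.296% of all probe sets were, and 14 were with replicate 1 exchanged, where 0.541% were. None was lower with either labelling. The chaperone level of an array was taken as a mean over the 29 genes. Each gene's log2 signal entered relative to its mean over all 18 arrays. This level was 0.31, -0.58 and -0.34 in the control libraries and -0.79, 0.47 and 0.26 with doxycycline. Earlier controls lay between -0.64 and -0.18 and earlier doxycycline arrays between 0.04 and 0.55. The library labelled control, replicate 1, was inside the earlier doxycycline range and the library labelled doxycycline, replicate 1, was below the earlier control range. The latter had the lowest signal of all 18 arrays for 15 of the 29 genes, where it did so for 6.93% of all probe sets.

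**Figure D2:**
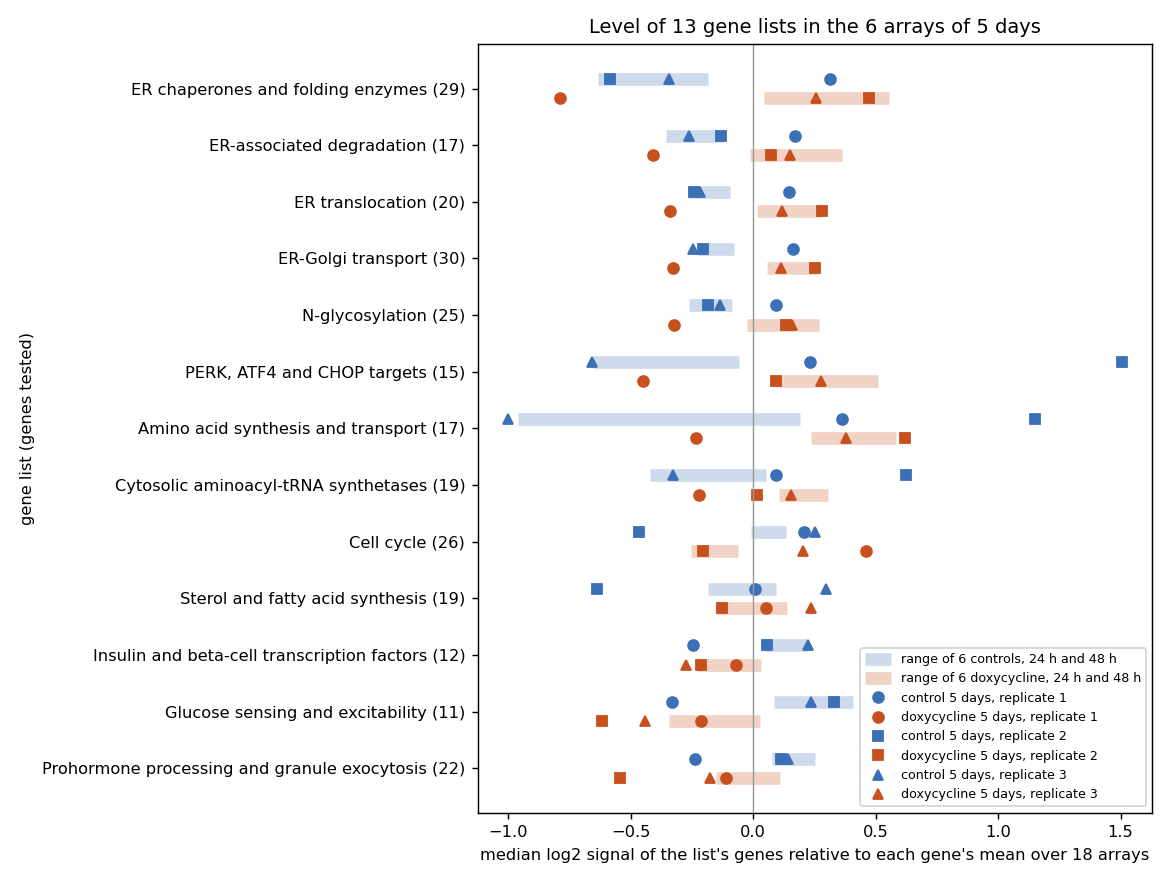
The x axis gives the mean log2 signal of the genes of 13 lists, relative to each gene's mean over 18 arrays. Its label reads median. Shown are the 3 control (blue) and 3 doxycycline (orange) arrays of 5 days, with circles, squares and triangles for replicates 1, 2 and 3. Bars give the range of the 6 control and 6 doxycycline arrays of 24 h and 48 h. Replicate 3 stays near the bar of its treatment in the first 8 lists, replicate 1 is turned round there, and control replicate 2 lies far to the right, at 1.5, in the PERK, ATF4 and CHOP list.

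The machinery around the chaperones went the same way by smaller amounts. Of 20 tested genes of ER translocation, which bring new proteins into the ER, 18 were higher in both pairs 2 and 3, and all 20 were lower in pair 1 (medians -0.45, 0.51 and 0.37). Sec11c, a signal peptidase subunit, had log2 ratios of -1.10, 1.11 and 0.68. Of 30 genes of ER-Golgi transport, 23 were higher in both pairs (medians -0.41, 0.45 and 0.33), led by Kdelr3, a receptor that returns chaperones to the ER. Kdelr3 had signals of 521, 236 and 217 in the control libraries and 246, 702 and 608 with doxycycline. The cargo receptor Tmed3 had -1.33, 1.40 and 1.06. Of 25 genes of N-glycosylation, 16 were higher in both pairs (medians -0.37, 0.39 and 0.32), and the oligosaccharyltransferase subunit Ostc had -1.26, 0.84 and 0.84. The exchanged medians of these lists were 0.42, 0.36 and 0.32, and the 48 h medians 0.38, 0.35 and 0.32.

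ER-associated degradation, which retrieves misfolded proteins from the ER for the proteasome, was less uniform in pair 2. Of 17 genes, 9 were higher in both pairs 2 and 3, and the medians were -0.70, 0.19 and 0.30. Herpud1 (Herp), a membrane component of the degradation complex, had signals of 2322, 2491 and 820.5 in the control libraries and 881, 2798 and 1859 with doxycycline. The libraries labelled control, replicates 1 and 2, were above all earlier controls (666 to 1356) and inside the range of the earlier doxycycline arrays (2016 to 3086). Sel1l, the adaptor of the ubiquitin ligase Syvn1 (Hrd1), likewise had 5748, 6905 and 2728 in the control libraries and 2509.6, 8980.1 and 5557 with doxycycline. Syvn1 itself had no such value in control replicate 2, with 2120.5, 949 and 1166 against 1289, 1778 and 1998. The log2 ratios of pair 2 were 0.17 for Herpud1, 0.38 for Sel1l and 0.91 for Syvn1.

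The ATF4 branch separated pair 2 from pair 3. Of the 15 tested targets of PERK, ATF4 and CHOP, 14 were higher with doxycycline in pair 3, none in pair 2 and 1 in pair 1, with medians of 0.75, -1.28 and -0.69. The negative ratios of pair 2 went with a high control. Control replicate 2 had the highest signal of all 18 arrays for 14 of the 15 genes, where it did so for 11.1% of all probe sets. The level of the list in that array was 1.5, above the range of earlier controls (-0.66 to -0.06) and of earlier doxycycline arrays (0.11 to 0.51). Doxycycline replicate 2 had 0.09 and the pair 3 arrays -0.66 and 0.28.

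Trib3, a pseudokinase induced by ATF4 and CHOP, had signals of 857, 5053 and 156 in the control libraries and 318, 742 and 1196 with doxycycline. Control replicate 2 stands above all earlier arrays, which ended at 461 in the controls and 2053 with doxycycline. The log2 ratios were -1.43, -2.77 and 2.94, and the mean was -0.42 (standard error 1.10, limma adjusted p = 0.964, n = 3, lower in 2 of 3) as labelled and 0.53 exchanged. CHOP (Ddit3), a transcription factor linked to apoptosis, had 2550.4, 5629.7 and 837 in the control libraries and 1031, 3221 and 1990.3 with doxycycline. Control replicate 2 was again the highest array, and the ratios were -1.31, -0.81 and 1.25. Atf4 itself had 10132, 15191 and 4967 against 5865, 12467 and 10516. Chac1, which degrades glutathione, had log2 ratios of -0.91, -1.28 and 1.38, Atf5, a related transcription factor, -0.62, -1.42 and 1.45, and the stress protein Nupr1 -1.38, -0.75 and 1.43.

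Genes of amino acid supply, controlled in part by ATF4, had the same split. All 17 tested members of amino acid synthesis and transport were higher with doxycycline in pair 3 (median 1.03), 2 were in pair 2 (median -0.52) and 3 in pair 1 (median -0.39). Control replicate 2 had the highest signal of the 18 arrays for 15 of the 17. Pycr1, the last enzyme of proline synthesis, had signals of 1075, 1484 and 124 in the control libraries and 226, 1058 and 819 with doxycycline. Its ratios were -2.25, -0.49 and 2.72, with a mean of -0.0035 (standard error 0.93, limma adjusted p = 0.999, n = 3, lower in 2 of 3) as labelled and 1.49 exchanged. Slc7a11, the cystine transporter, had 603, 763 and 41.6 against 91, 784 and 393, so that 2 of the 3 controls were above every earlier doxycycline array (336 to 527). Psat1, of serine synthesis, had 4465, 7778 and 1293 against 3532, 5053 and 4005. Oat (ornithine aminotransferase) was 1 of the 2 exceptions in pair 2, with ratios of -0.90, 1.54 and 1.03. Of the 19 cytosolic tRNA synthetases, 18 were higher in pair 3 (median 0.59), none in pair 2 (median -0.45) and 2 in pair 1 (median -0.37), and control replicate 2 was highest for 14. Eprs1, which charges glutamate and proline, had 2225, 4547 and 1332 against 1419, 3155 and 2408, and its 4 probe sets disagreed.

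**Figure D3:**
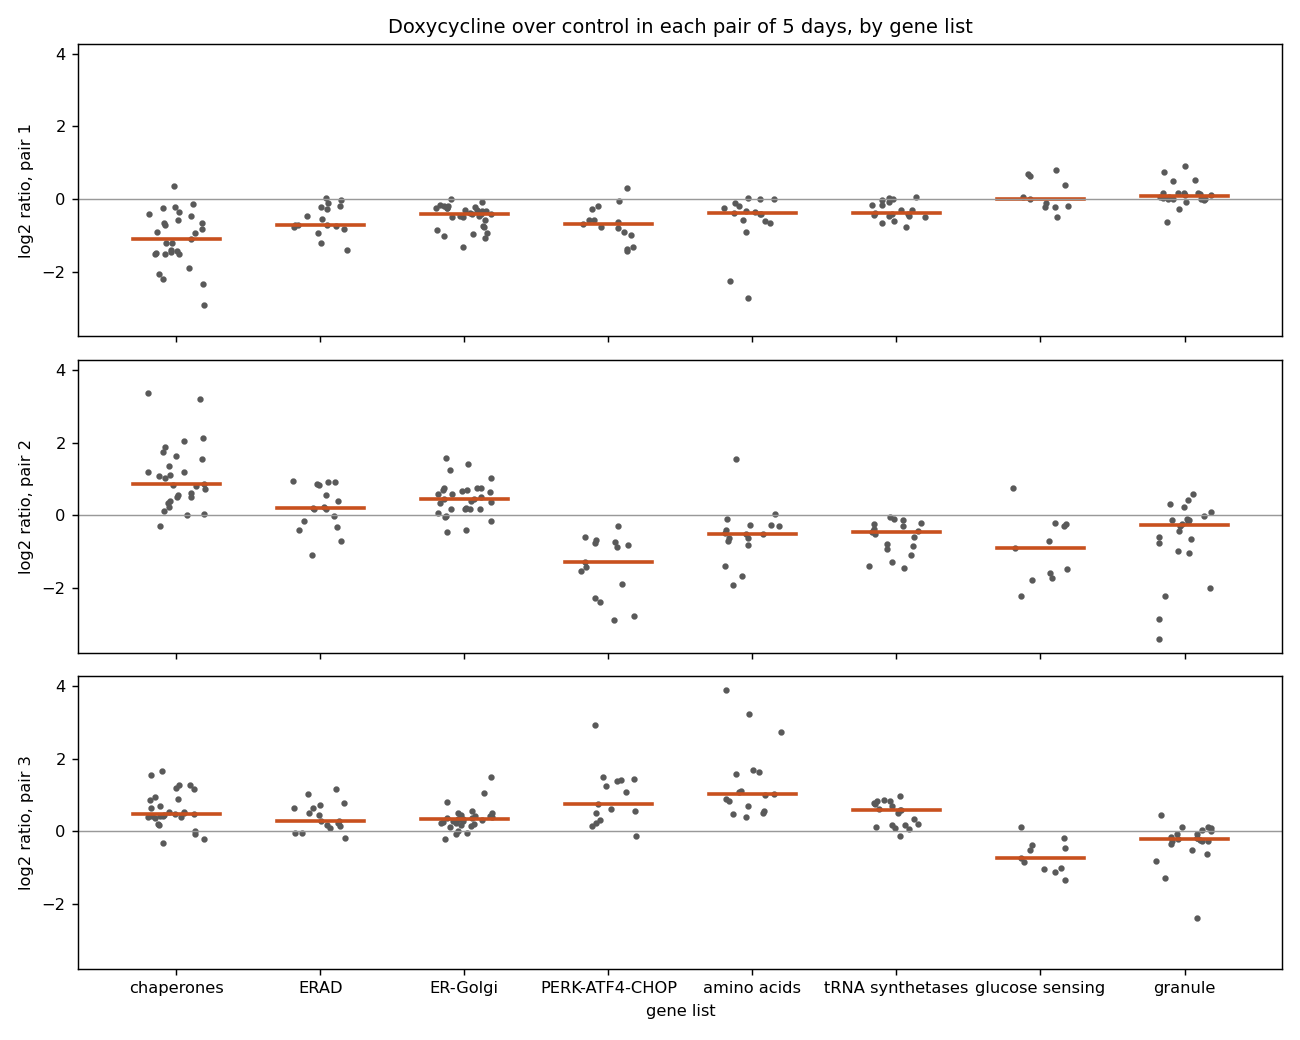
Each point is a tested gene of 8 lists (x axis) with its log2 ratio of doxycycline over control at 5 days (y axis), in pairs 1, 2 and 3 from top to bottom, and the orange bars are medians; ERAD is ER-associated degradation. The chaperones have medians of -1.10, 0.86 and 0.49, and the PERK, ATF4 and CHOP list medians of -0.69, -1.28 and 0.75.

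Control replicate 2 also stood apart in growth genes. Of 26 tested cell cycle genes it had the lowest signal of all 18 arrays for 15, and of 19 genes of sterol and fatty acid synthesis for 15, where it did so for 12.6% of all probe sets. The cell cycle level of that array was -0.47, against -0.01 to 0.14 in earlier controls and -0.26 to -0.06 in earlier doxycycline arrays. The mitotic cyclin Ccnb1 had 5438, 2747 and 5258 in the control libraries and 8178, 3810.1 and 4536 with doxycycline, and the mitotic kinase Cdk1 had 5108, 2677 and 5426 against 7768, 3244 and 4897. The library labelled doxycycline, replicate 1, was the highest of the 18 arrays for 14 of the 26 genes, where it was so for 8.11% of all probe sets. The medians of the cell cycle list were 0.21, 0.45 and -0.03 in the 3 pairs and -0.31 at 48 h. All ratios of pair 2 are taken over control replicate 2. The part of its high ATF4 targets and low growth genes in those ratios was not tested. The GAPDH 3'/5' ratio of control replicate 2 was 1.06, inside the range of the other arrays.

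As lists, β-cell genes were lower with doxycycline in pairs 2 and 3, and in pair 1 their level was low in both arrays. Of 11 tested genes of glucose sensing and excitability, 9 were lower in both pairs 2 and 3, where 24.3% of all probe sets were, and the medians were 0.01, -0.89 and -0.73. Of 22 genes of prohormone processing and granule exocytosis 15 were lower in both, with medians of 0.08, -0.27 and -0.20, and of 12 genes of insulin and β-cell transcription factors 8 were, with 0.13, -0.15 and -0.37. The ratios of pair 2 rest on the array of high 3'/5' ratio. That array had the lowest signal of all 18 for 4 of the 11 glucose sensing genes and 9 of the 22 granule genes. It did so for 21.9% of all probe sets, and the part of the 3'/5' ratio was not tested. In such bulk samples, fewer cells with a transcript and less of it per cell cannot be told apart. The glucose sensing level was -0.33 and -0.21 in the libraries labelled control and doxycycline, replicate 1. Both lay below the earlier controls (0.09 to 0.41) and inside the range of the earlier doxycycline arrays (-0.35 to 0.03). The level was 0.33 and 0.24 in control replicates 2 and 3. It was -0.62 and -0.44 in doxycycline replicates 2 and 3, below the earlier doxycycline arrays. Exchanging the labels of replicate 1 therefore did not bring the level of this list in pair 1 to those of pairs 2 and 3. Its members differed, and 6 of the 11 had a positive ratio in pair 1 as labelled, which the exchange turns negative. Among them were Kcnip1 (0.81), Kcnj11 (0.70) and Abcc8 (0.64), while Glp1r had -0.51.

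Mafa, a transcription factor of mature β-cells that binds the insulin promoter, had signals of 1085, 4197 and 4447 in the control libraries and 1382, 1370.3 and 1086 with doxycycline. Both arrays of pair 1 were at the level of doxycycline replicates 2 and 3, and all 4 were below every earlier array, the lowest of which had 1993. The log2 ratios were 0.35, -1.61 and -2.03, and the mean was -1.10 (standard error 0.49, limma adjusted p = 0.935, n = 3, lower in 2 of 3) as labelled and -1.33 exchanged. Sytl4 (granuphilin), which docks insulin granules, had 517, 2093 and 2820.1 against 865, 289 and 538. The KATP channel subunits Kcnj11 and Abcc8, which couple glucose metabolism to membrane voltage, had log2 ratios of 0.70, -1.60 and -0.99, and of 0.64, -1.72 and -0.84. The prohormone convertase Pcsk2 had 4109, 10102 and 9012 against 7733, 2174 and 3711.

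The insulin genes themselves differed from each other. Ins1 was between 18233 and 24703 in all 6 arrays, with ratios of -0.08, 0.22 and -0.05. Ins2 had 9305, 19397 and 21082 in the control libraries and 10571, 12656 and 13902 with doxycycline. Its ratios were 0.18, -0.62 and -0.60. For Ins2, both arrays of pair 1 and doxycycline replicates 2 and 3 were below all earlier arrays, which began at 16025. The sources used here do not say whether its probe set also reads the mouse transgene. Glucagon (Gcg), the hormone of α-cells, had 7.87, 2147 and 762 in the control libraries and 135, 314 and 110.1 with doxycycline. The ratios were 4.10, -2.77 and -2.79, and the mean was -0.49 (standard error 1.46, limma adjusted p = 0.969, n = 3, lower in 2 of 3) as labelled and -3.22 exchanged. Probe sets with a mean signal under 122 were not tested. The 7.87 lies close to the floor of 5.99, and doxycycline replicate 3 (110.1) is also under 122, so the ratios of pairs 1 and 3 each rest on a dim array. The matrix protein Fn1 (fibronectin) had 505, 2331 and 2587 against 913, 825 and 741, and Wnt4, a secreted signalling protein outside the lists, 1145, 4553 and 4307 against 2116, 605 and 1446. In both genes the library labelled control, replicate 1, was low where controls 2 and 3 were high.

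**Figure D4:**
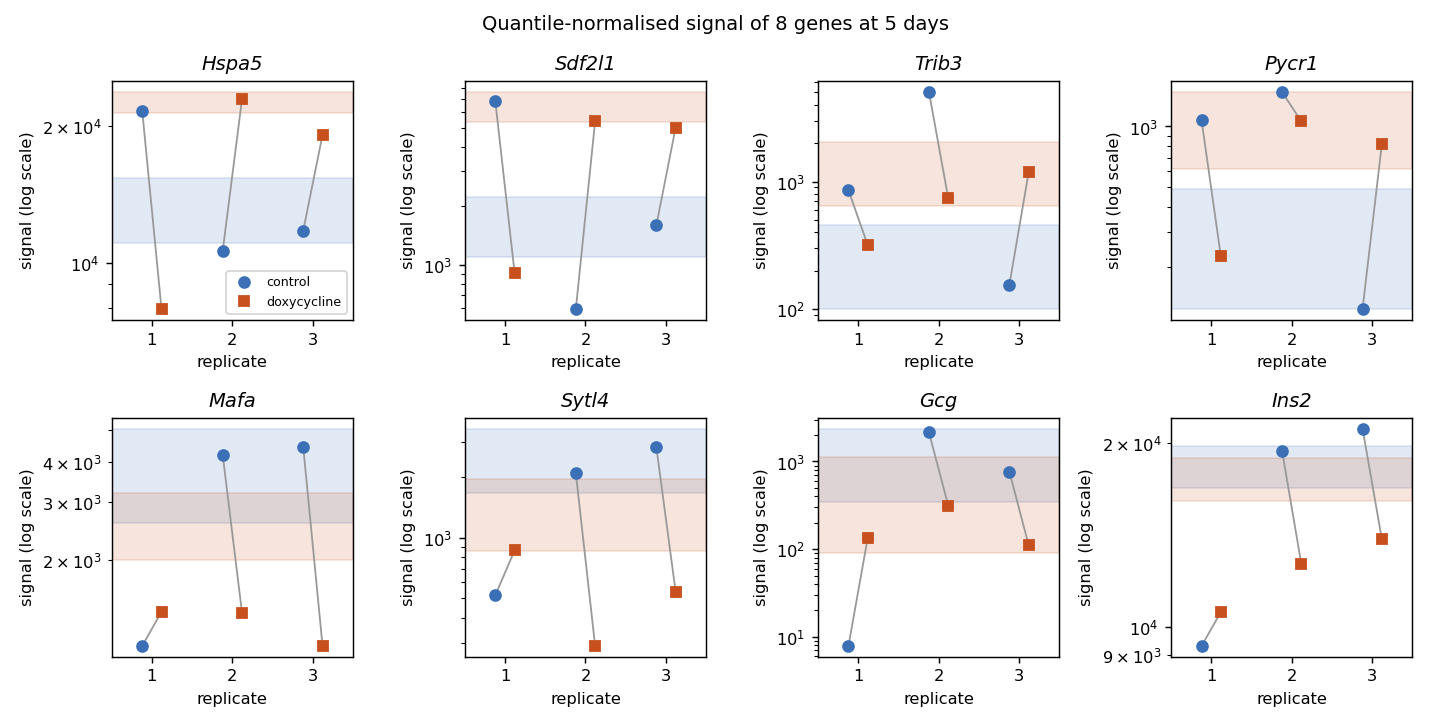
Quantile-normalised signals (log y axis) of 8 genes are shown in control (blue circles) and doxycycline (orange squares) arrays of replicates 1, 2 and 3 (x axis), with lines joining a pair and shaded bands for the range of the 6 control (blue) and 6 doxycycline (orange) arrays of 24 h and 48 h. Hspa5 and Sdf2l1 turn round in replicate 1, Trib3 peaks at 5053 in control replicate 2, and Mafa, Sytl4 and Ins2 are low in both arrays of replicate 1.

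Pair 3, which carries neither doubt, could be set against the spread of the earlier pairs only. In a fit of all arrays without pairs 1 and 2 of 5 days, chosen after the data had been seen, limma called 81 probe sets higher (0.522% of those tested) and 92 lower (0.593%). The single pair was assumed there to vary like the 24 h and 48 h pairs, although the 5-day pairs varied more. In this fit 8 of the 29 chaperones rose, with a log2 ratio of 1.66 (standard error 0.18, adjusted p = 0.018) for Sdf2l1 and 1.27 (standard error 0.10, adjusted p = 0.00657) for Fkbp11, while Hspa5 did not pass (0.70, adjusted p = 0.0747). The others that rose were Pdia2, Dnajb9, Dnajb11, Dnajc3, Creld2 and Manf. Sel1l, Sec11c, Sec31a, Kdelr3, Tmed3, Ostc and Magt1 rose as well. None of the 15 PERK, ATF4 and CHOP targets passed, Trib3 included (2.94, standard error 0.84, adjusted p = 0.147), and of the 17 amino acid genes only the transaminase Gpt2 did, whose ratios were -0.60, -0.83 and 3.90. Of the β-cell lists, Mafa fell by 2.03 on the log2 scale (adjusted p = 0.00497), and Sytl4 (adjusted p = 0.00204), Pcsk2, Kcnj11, Abcc8, Nkx2-2, Kcnip1 and Adcyap1r1 fell too. Gcg fell by 2.79 (adjusted p = 0.0198). With 1 pair, the test has no replicate of its own at 5 days.

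No difference between 5 days and 48 h was called. The limma contrast of both doxycycline effects over all 18 arrays gave 0 probe sets as labelled (914 higher and 668 lower unadjusted, smallest adjusted p = 0.425) and 0 with replicate 1 exchanged (549 and 429 unadjusted). Without pair 3 it called 116 higher and 102 lower. As labelled, Trib3 had a log2 difference of -4.27 and Pycr1 of -3.14 (limma adjusted p = 0.425 each), and Sdf2l1 of -1.21 (limma adjusted p = 0.721). With replicate 1 exchanged they were -3.31, -1.65 and 0.73 (limma adjusted p = 0.717 each), so that of Sdf2l1 changed sign. Without pair 3, Trib3 (-5.95, limma adjusted p = 0.0276) and Pycr1 (-4.51, limma adjusted p = 0.0274) passed. That setting keeps only pairs 1 and 2 of 5 days, as labelled, which are the pairs in doubt. In pair 3, left out there, the log2 ratios at 5 days were 2.94 for Trib3 and 2.72 for Pycr1.

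Genes that went the same way in all 3 pairs as labelled made up 13.6% of probe sets for higher and 9.84% for lower, and the 2 groups did not overlap in 3.73% and 2.76%. Of the 339 list genes tested, 4 did not overlap and were higher with doxycycline, and 5 were lower. The largest consistent increase was that of Ptn (pleiotrophin), a secreted growth factor, with 158, 85.3 and 155 in the control libraries and 532, 286 and 234 with doxycycline. The groups did not overlap, but the mean ratio of 1.36 (limma adjusted p = 0.935) did not pass and Ptn had a mean of -0.16 at 48 h. With replicate 1 exchanged it was 0.20. Gsta4, a glutathione transferase, had 206, 67.6 and 137 against 231, 315 and 229. The 10 largest consistent decreases all had log2 ratios between -6.80 and -3.83 in pair 2, which holds the array of high 3'/5' ratio. The part of that ratio in them was not tested. Eif4h, a translation initiation factor, had 3179, 2835 and 3339.8 against 2656, 62.5 and 2506, and another probe set of the gene had a mean ratio of -0.06. For Hnf4a, a transcription factor, the probe set in question had a ratio of -5.47 in pair 2 and the brightest probe set of the gene 0.43. Among genes highest in both pairs 2 and 3 and outside the ER lists were Bhlha15 (Mist1), a factor of secretory cells, with -2.12, 2.19 and 1.27, Prkcz, an atypical protein kinase C, with -1.10, 1.43 and 1.77, and Smad7, an inhibitor of TGF-β signalling, with -0.06, 2.13 and 1.49 in the brightest of its 3 probe sets, the others having means of 0.21 and 0.02.

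The remaining lists had medians near that of all probe sets in pair 3, with -0.03 for 13 apoptosis regulators, -0.09 for 12 cytosolic heat shock proteins, 0.06 for 13 mitochondrial chaperones and proteases, 0.03 for 9 NRF2 targets, 0.06 for 11 interferon-stimulated genes, 0.12 for 6 reported IRE1 substrates, 0.04 for 10 genes of matrix and adhesion and -0.06 for 19 genes of sterol and fatty acid synthesis. In pair 1 these medians ran from -0.11 to 0.19, and in pair 2 from -0.25 to 0.56. Members of matrix and adhesion went both ways in pair 3, with -1.80 for Fn1, -0.84 for the laminin receptor Bcam and 1.21 for the metalloproteinase inhibitor Timp1.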

How the data were processed

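Total RNA of clone #4S2 cells was measured by the authors on rat genome arrays from Affymetrix, 1 per culture. The deposited values are linear intensities, 1 per probe set and array, scaled before deposit to a 2% trimmed mean of 500.14 to 500.17. The sources used here do not name the program that computed them. Groups and pairs were taken from the labels. Of 31099 probe sets 57 controls were left out. Intensities were quantile normalised, raised to a floor of 5.99 and converted to log2, and the 15521 probe sets in the upper 50 percent by mean were tested with limma (version 3.58.1, R 4.3.3) on the 6 arrays with 3 pairs as a block, Benjamini-Hochberg adjusted, threshold 0.05. The number of arrays limits the precision. The deviations from the group mean of same-numbered arrays had correlations of 0.149, 0.142 and 0.109, between -0.13 and 0.01 for other numbers, so the pairs were kept. The values for other numbers are not independent of the former. Same-numbered arrays had 0.484 to 0.667 at 24 h and 0.256 to 0.578 at 48 h, so the pairing was weaker at 5 days. The fit was tested on data simulated with the spread of the 48 h arrays. At the median that spread was 0.11 log2 units, against 0.24 in the 5-day arrays as labelled. The simulation therefore does not show which changes the 5-day fit would recover.

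Gene names came from the platform annotation (20826 probe sets with 1 gene, 436 with several, 9780 with none), updated through RefSeq for 20758, and from the study's supplement for 12. A gene was represented by its brightest probe set. The 24 lists, the exchange of labels and the rules for named genes (core list members, the study's selected induced genes, and the 10 highest and lowest in all 3 pairs or in pairs 2 and 3) were chosen with earlier results of these data known. Lists are described by counts and medians, with no set test. Alternatives were all 18 arrays, no block, exchanged labels, each pair left out, no quantile normalisation, no floor with a pseudocount of 16, no filter and the methods' t-test.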

Additional observations from a re-analysis of the deposited data

Results flagged for a closer look

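The control probe sets, which entered no comparison, set the library labelled doxycycline, replicate 2, of 5 days apart. Its GAPDH 3'/5' signal ratio was 2.91, above every control array and outside the 1.05 to 1.19 of the other 17 arrays. Its β-actin 3'/5' ratio was 5.26, where the others had 1.64 to 2.74. Every value of pair 2 rests on this array.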

How the results depend on the processing

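The count of 0 limma calls held with all 18 arrays, without each pair, without quantile normalisation, with a pseudocount and without a filter. Without the replicate block it was 0 higher and 0 lower (152 and 163 unadjusted). It did not hold with the labels of replicate 1 exchanged in the fit of all 18 arrays (284 higher, 141 lower), with pair 2 also left out of the 6 arrays (1 and 0), or in fits chosen after seeing the data, with pair 1 exchanged, pair 3 and the earlier arrays (296 and 164) or with pair 3 and the earlier arrays (81 and 92). The difference between 5 days and 48 h had 0 to 116 higher and 0 to 102 lower calls with 1 pair left out, and 1 higher without a filter. The 2-fold rule gave 1 to 38 higher and 1 to 54 lower with 1 pair left out, 84 higher with exchanged labels, 26 higher without quantile normalisation, and 1278 and 1141 without a filter. Leaving out 1 pair moved the mean log2 ratio of Hspa5 between -0.37 and 0.90, Sdf2l1 between -0.63 and 2.42, Trib3 between -2.10 and 0.75, Pycr1 between -1.37 and 1.12 and Gcg between -2.78 and 0.66. With the labels exchanged, in either fit, Trib3 had 0.53 and Pycr1 1.49. With pair 2 also left out, in either fit, Trib3 had 2.19, Pycr1 2.49 and Ptn -0.57, and with pair 3 and the earlier arrays Trib3 had 2.94 and Pycr1 2.72. Of 103 named genes, the sign changed for 13, 38 and 19 without pairs 1, 2 and 3, for 19 with exchanged labels and for 5 without quantile normalisation. Apart from the exchanged labels and the left-out arrays, the causes were not tested. The fit without a filter called nothing at 48 h, so its 48 h calls gave no value here. With 3 pairs that differ this much, a missing call does not show that a gene was unchanged.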
